A study of Mus musculus with 18 samples.

Results

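The anterior pituitary hormone genes described here are 7 rows of a table of 55270 genes measured in mouse substantia nigra, a midbrain nucleus rich in dopaminergic neurons. They are Prl (prolactin), Gh (growth hormone), Pomc (proopiomelanocortin), Cga (the alpha subunit shared by the glycoprotein hormones), Tshb and Lhb (the beta subunits of thyrotropin and luteinising hormone) and Pou1f1 (the POU transcription factor also called Pit-1). The rows were taken by symbol, and the genes were chosen by their low values in AAV-GFP and AAV-SIRT3 libraries against the intact group, as seen for Prl, Gh and Pomc in these same libraries. Those differences are therefore given as a description, with no p. Calls of the fit in those contrasts follow from the choice and support nothing. Of the 7 genes, 6 passed the filter on low values (at least 10 normalised reads in at least 6 of 18 libraries), as did 19443 genes in all. Cga passed it with 5 intact libraries and 1 AAV-GFP library, and Pou1f1 did not pass.

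The study compared 3 groups of 6 mice, each mouse giving 1 poly-A RNA library. Intact mice were wild type, and no treatment is named for them. AAV-GFP mice received an adeno-associated virus (AAV, a gene delivery vector) for overexpression of green fluorescent protein, and AAV-SIRT3 mice one for overexpression of SIRT3, a mitochondrial deacetylase. All mice were 3 months old, and the tissue was taken about a month after the virus. The labels used here do not give the promoter, the serotype or the injection route of the virus, so the cells it reached are not known, and they describe no sham injection of the intact mice. A difference from intact mice therefore cannot be told apart from one that comes with surgery or with any virus.

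Prolactin and growth hormone are made by lactotrophs and somatotrophs of the anterior pituitary, a gland below the hypothalamus that is not part of the midbrain. The factor Pou1f1 is required in mice for both of these cell types and for thyrotrophs. Corticotrophs, and the melanotrophs of the intermediate lobe, make Pomc, which is also made by neurons of the hypothalamus. Thyrotrophs and gonadotrophs make Cga together with the beta subunit that gives each hormone its identity.

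Reads assigned to genes numbered 47182529 to 64728587 per library. A normalised read is a read divided by the size factor of its library. Dopaminergic neuron genes were high in all groups, with Th, the tyrosine hydroxylase of dopamine synthesis, at 5729 ± 761, 4711 ± 659 and 5756 ± 186 normalised reads in intact, AAV-GFP and AAV-SIRT3 libraries (SD, n = 6 each). Sirt3 had 1824 ± 66.3, 1775 ± 92.4 and 1937 ± 79.4 normalised reads in the same order (SD, n = 6 each), and the groups overlapped. The labels used here do not state which species' SIRT3 the virus carries. Its transcripts may therefore not be counted in the mouse Sirt3 row, and that row does not measure the overexpression. Some libraries stood apart in genes of other tissues. Intact replicate 1 was low in genes of the hypothalamus, with Hcrt (the orexin precursor) at 74.1 normalised reads against at least 2776 in the other intact libraries. Ttr, the transthyretin gene that is very high in choroid plexus, had 44471 normalised reads in intact replicate 2 and 39158 in AAV-GFP replicate 5, against at most 4783 elsewhere. Intact replicates 1, 3 and 5 had 46919 to 48943 normalised reads summed over 9 thalamus genes, against at least 72945 in every other library. The fold changes of the members against intact mice are given below with and without these libraries.

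The promoters of 5 members are shown because the members moved in different ways and because Prl is a known target of Pou1f1. Each window is the 250 bases before a transcription start in RefSeq on GRCm38.p6, on the strand of the gene. Capitals mark matches to TATNCAT, the core of the Pou1f1 motif (ATGNATA when read on the opposite strand), and to TATAAA, the TATA box (TTTATA on the opposite strand). Where both strands or both motifs match over the same bases, the capitals run together.
Prl, chr13:27057320-27057569, plus strand: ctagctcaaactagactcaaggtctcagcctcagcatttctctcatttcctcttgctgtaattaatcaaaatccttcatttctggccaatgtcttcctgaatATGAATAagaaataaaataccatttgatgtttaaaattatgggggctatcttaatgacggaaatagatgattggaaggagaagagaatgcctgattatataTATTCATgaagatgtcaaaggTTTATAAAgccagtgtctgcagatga
Pou1f1, first of 2 start sites, chr16:65520262-65520511, plus strand: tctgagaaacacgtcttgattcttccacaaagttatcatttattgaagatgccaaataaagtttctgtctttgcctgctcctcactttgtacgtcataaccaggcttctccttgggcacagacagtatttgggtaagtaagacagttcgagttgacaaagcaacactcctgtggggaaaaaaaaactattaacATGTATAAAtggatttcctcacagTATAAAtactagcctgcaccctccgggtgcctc
Cga, chr4:34893529-34893778, plus strand: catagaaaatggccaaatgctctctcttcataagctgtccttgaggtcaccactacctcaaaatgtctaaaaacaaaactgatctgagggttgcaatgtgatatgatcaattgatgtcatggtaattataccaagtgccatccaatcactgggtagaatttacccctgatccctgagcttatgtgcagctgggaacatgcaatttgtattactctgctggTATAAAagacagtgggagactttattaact
Pomc, chr12:3954695-3954944, plus strand: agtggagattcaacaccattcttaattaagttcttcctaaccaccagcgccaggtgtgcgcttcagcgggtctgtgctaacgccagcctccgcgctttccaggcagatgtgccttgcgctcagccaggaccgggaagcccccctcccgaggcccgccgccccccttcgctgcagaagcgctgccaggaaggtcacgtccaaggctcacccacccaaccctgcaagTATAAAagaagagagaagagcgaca
Tshb, chr3:102782715-102782964, minus strand: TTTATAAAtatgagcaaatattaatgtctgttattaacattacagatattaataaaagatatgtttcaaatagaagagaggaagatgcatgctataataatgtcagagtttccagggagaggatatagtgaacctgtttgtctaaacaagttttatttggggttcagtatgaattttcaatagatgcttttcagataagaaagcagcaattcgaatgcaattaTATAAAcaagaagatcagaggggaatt

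RefSeq windows were found for 6 of the 7 members. The Prl window held 2 matches to TATNCAT, one from 148 to 142 bases before the start on the opposite strand and one from 47 to 41 bases before it. The first Pou1f1 window held 1 match, from 57 to 51 bases before the start, which overlapped a TATAAA match from 54 to 49. No TATNCAT was found in the windows of Cga, Pomc, Tshb or Lhb, or in that of the other Pou1f1 start site. Among all 32851 windows of the same length, 7.92% held TATNCAT and 12.4% held TATAAA on either strand. TATAAA was present in a window of each of the 6 members, with a match within 33 bases of the start. For Pou1f1 this was the first start site, and the window of the other start site held 0 matches. A match overlapped one on the opposite strand near the start of Prl and at the far end of the Tshb window, from 250 to 243 bases before the start. These matches describe letters and not binding.

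Gh, which promotes growth through its receptor in liver and other tissues, was the highest member in intact libraries per length, at 1386 ± 898 normalised reads per kb of exon (SD, n = 6). Its position is chromosome 11, from 106300271 to 106301865 in GENCODE M21 (GRCm38) and is read from the minus strand. In intact replicates 1 to 6 it had 1581, 2244, 1413, 1304, 569 and 56.4 normalised reads. In AAV-GFP replicates 1 to 6 it had 51.8, 70.2, 314, 5.96, 28.02 and 18.7. AAV-SIRT3 replicates 1 to 6 had 23.8, 344, 308, 33.7, 20.4 and 210. Of the intact libraries, 5 lay above all 12 virus libraries, and intact replicate 6 lay inside the range of both virus groups. The libraries spanned a 377-fold range from AAV-GFP replicate 4 to intact replicate 2. Group means were 1195 ± 774 for intact, 81.4 ± 116 for AAV-GFP and 157 ± 150 for AAV-SIRT3 mice (SD, n = 6 each), so that the intact mean was 14.7 times the AAV-GFP mean and 7.63 times the AAV-SIRT3 mean.

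Prl, the hormone of lactation, is on chromosome 13 (27057570 to 27065205, plus strand), where an antisense gene, Gm47888, overlaps it. Its level in intact libraries was 173 ± 115 normalised reads per kb of exon (SD, n = 6), lower than that of Gh in the same units. In intact replicates 1 to 6 it had 356, 481, 228, 231, 155 and 13.6 normalised reads. AAV-GFP replicates 1 to 3 had 29.6, 7.29 and 74.8, and replicates 4 to 6 had 0 reads. A count of 0 allows up to 3 reads, which is 2.55, 3.11 and 2.95 normalised reads in those 3 libraries. This limit is one-sided, and the two-sided exact Poisson intervals drawn in the plot of members by library end at 3.14, 3.83 and 3.62. AAV-SIRT3 replicates 1 to 6 had 0.952, 46.0, 91.5, 15.9, 4.30 and 29.3 normalised reads. The pattern was that of Gh, with 5 intact libraries above all 12 virus libraries and intact replicate 6 inside both virus groups. The means were 244 ± 161, 18.6 ± 29.8 and 31.3 ± 33.9 in intact, AAV-GFP and AAV-SIRT3 (SD, n = 6 each). The rows named Prl followed by a digit, which are the placental members of the prolactin family, were checked as near copies. Of these 25 rows, 20 were at 0 in every library and the highest held 1 read.

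Gh and Prl went up and down together among libraries of the same group. Within the intact group, r was 0.99 on log2(value + 1) over 6 libraries (exact two-sided permutation p = 0.002778, adjusted p = 0.025 over 9 relations). Spearman's rho was 0.94 (exact permutation p = 0.01667, adjusted p = 0.15), and r was 0.94 without replicates 5 and 6, the libraries farthest from the median of Gh. In AAV-GFP libraries r was 0.87 (exact permutation p = 0.025, adjusted p = 0.075), with a rho of 0.88 (exact permutation p = 0.05, adjusted p = 0.15). In AAV-SIRT3 libraries r was 0.89 (exact permutation p = 0.01389, adjusted p = 0.0625), with a rho of 0.89 (exact permutation p = 0.03333, adjusted p = 0.15). Without the 2 libraries farthest from the median, r was 0.82 and 0.87 in these groups. Only the Pearson relation of the intact group passed the adjustment, and with any 1 intact library left out its adjusted p ran from 0.0625 to 0.1 while r ran from 0.9135 to 0.995.

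The share of Prl in the reads of Prl and Gh together was alike in the pooled reads of each group, but differed between single libraries. With 1533 Prl and 7508 Gh reads it was 17.0% for intact mice, with 102 and 456 reads 18.3% for AAV-GFP mice, and with 193 and 962 reads 16.7% for AAV-SIRT3 mice. In single intact libraries the share ran from 13.9% in replicate 3 (95% exact Clopper-Pearson interval 12.3 to 15.6) to 21.4% in replicate 5 (18.3 to 24.8). Intact replicate 6, with only 13 Prl and 54 Gh reads, had 19.4% (10.8 to 30.9), so its share lay among those of the other intact libraries although both genes were low. The shares of the virus libraries rested on fewer reads and ran from 0% to 36.4% in AAV-GFP and from 3.85% to 32.0% in AAV-SIRT3. Intervals of single AAV-GFP libraries lay apart, at 25.7 to 48.1 in replicate 1 and 0 to 12.8 in replicate 5. The pooled AAV-GFP share was mostly that of replicate 3, 19.2%, which held 66 of the 102 Prl and 277 of the 456 Gh reads.

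**Figure D1:**
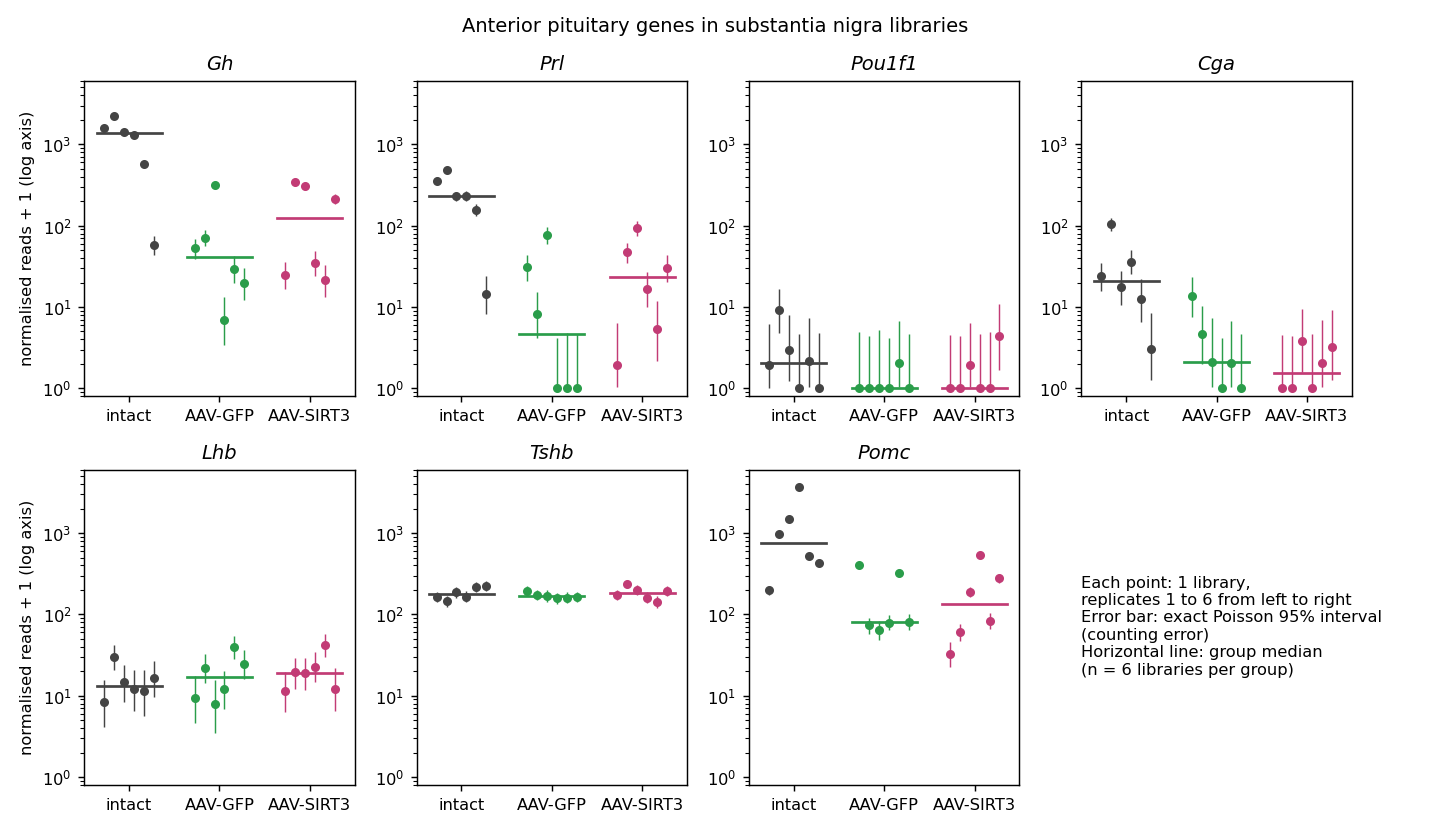
Normalised reads plus 1 (log axis) of the 7 members in intact, AAV-GFP and AAV-SIRT3 libraries. Each point is 1 library, in replicate order from left to right, with its exact 95% Poisson interval for counting error, and each line is the median of 6 libraries. Gh and Prl are above all virus libraries in 5 of 6 intact libraries, while Tshb stays between 142 and 236 normalised reads in all 18.

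Pou1f1, the transcription factor of the Gh and Prl lineage, was at the edge of detection. Its position is chromosome 16, from 65520511 to 65535005, plus strand, overlapped by the non-coding gene Gm49631. Intact replicates 1 to 6 had 1, 9, 2, 0, 1 and 0 reads. Of the AAV-GFP libraries only replicate 5 had a read, and of the AAV-SIRT3 libraries replicate 3 had 1 and replicate 6 had 3. The highest value, 8.16 normalised reads in intact replicate 2, was in the library with the highest Gh, Prl and Cga. At these counts no difference between groups can be read for Pou1f1. It was left out by the filter, and in a fit over all genes with a value above 0 its AAV-SIRT3 to AAV-GFP log2 fold change was 0.34 (limma adjusted p = 0.814).

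Cga, whose protein pairs with the beta subunits of thyrotropin, luteinising hormone and follicle-stimulating hormone, is on chromosome 4 (34893779 to 34907370, plus strand), overlapped by the non-coding gene Platr9. In intact replicates 1 to 6 it had 22.9, 102, 16.6, 34.97, 11.4 and 2.09 normalised reads. In AAV-GFP replicates 1 to 6 it had 12.7, 3.65, 1.13, 0, 1.04 and 0. No AAV-SIRT3 library exceeded 2.86, and 3 of the 6 were at 0. Intact replicate 2 was highest and intact replicate 6 lowest among the intact libraries, as for Gh and Prl, and the intact range overlapped that of both virus groups. Group means were 31.7 ± 36.4 for intact, 3.09 ± 4.89 for AAV-GFP and 1.03 ± 1.27 for AAV-SIRT3 mice (SD, n = 6 each). The ratio of the intact to the AAV-SIRT3 mean, 30.8, rested on 202 and 6 reads, and intact replicate 2 alone held 113 of the 202. Its precision is limited by the spread between mice as well as by these counts.

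Fshb, the beta subunit of follicle-stimulating hormone and not a member, is named here after its values were seen. It had 25.4, 10.7, 3.996 and 1.04 normalised reads in intact replicates 2, 3, 4 and 6 and 0 reads in intact replicates 1 and 5. Among the 12 virus libraries it had reads in AAV-GFP replicate 1, at 4.23 normalised reads, and in AAV-SIRT3 replicate 3, at 0.953. The library with the most Cga was thus also the one with the most Fshb and the most Pou1f1.

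Tshb and Lhb, which the group's name would place with the others, did not share their pattern. Tshb is on chromosome 3 (102775465 to 102782718, minus strand), wholly inside the span of Tspan2, a tetraspanin gene on the plus strand, and shares no exonic base with it. It had 143 to 221 normalised reads in intact libraries (median 175), 156 to 193 with AAV-GFP (median 166) and 142 to 236 with AAV-SIRT3 (median 183). All 3 groups overlapped, and intact libraries were higher than AAV-GFP libraries in 22 of 36 pairs of libraries. Over the 18 libraries the coefficient of variation was 15.0%, against 57.2% for Lhb and 142% or more for each of Prl, Gh, Pomc and Cga. Intact replicate 6, which was lowest in Prl, Gh and Cga, had the highest Tshb of the intact libraries, 221 normalised reads. Tspan2 had 16605 to 19950 normalised reads, and Tshb was 0.775% to 1.25% of it in every library. The libraries were stranded, but the strand setting of the counting is not given in the sources used here, so reads of Tspan2 transcripts and of Tshb cannot be told apart.

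Lhb is on chromosome 7 (45420820 to 45421897, plus strand), and 138 of its 678 exonic bases are shared with exons of Ruvbl2, an ATPase gene on the minus strand. It had 7.32 to 29.0 normalised reads in intact libraries (median 12.3), 6.80 to 38.4 with AAV-GFP (median 16.0) and 10.5 to 40.9 with AAV-SIRT3 (median 18.2). The groups overlapped. Lhb was highest in AAV-GFP replicate 5 and AAV-SIRT3 replicate 5, where Prl, Gh and Cga were low. Within the intact group it was highest in replicate 2, at 29.0 normalised reads against at most 15.7 in the others, the library that was also highest in Prl, Gh and Cga. Ruvbl2 had 1243 to 1500 normalised reads, and the Lhb value was 0.508% to 3.09% of it. The same limit of the strand setting applies, so neither row shows hormone transcripts by itself.

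Pomc, the precursor of corticotropin, melanocyte-stimulating hormone and beta-endorphin, is on chromosome 12 (3954951 to 3960642, plus strand), with no overlapping gene. Its level in intact libraries was 922 ± 980 normalised reads per kb of exon (SD, n = 6), which did not differ from that of Gh beyond their spread. Intact replicates 1 to 6 had 197, 965, 1494, 3680, 524 and 431 normalised reads. AAV-GFP replicates 1 to 6 had 403, 72.0, 62.3, 78.3, 322 and 79.6, and AAV-SIRT3 replicates 1 to 6 had 31.4, 59.7, 188, 543, 81.7 and 277. The means were 1215 ± 1292, 169 ± 152 and 197 ± 193 (SD, n = 6 each). Pomc was highest in intact replicate 4, not replicate 2, and lowest of the intact libraries in replicate 1, where Gh was second highest. AAV-GFP replicate 3, with the most Gh and Prl of its group, had the least Pomc of it.

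The order of libraries for Pomc was not that of Gh. Its ratio to Gh in reads ran from 0.124 in intact replicate 1 to 7.65 in intact replicate 6, from 0.199 to 13.1 in AAV-GFP and from 0.174 to 16.1 in AAV-SIRT3. The r of Pomc with Gh was 0.30 among intact, -0.11 among AAV-GFP and 0.17 among AAV-SIRT3 libraries, and that with Prl was 0.21, -0.01 and 0.51 (6 libraries each). Exact permutation tests gave adjusted p from 0.697 to 0.983 for these 6 relations. With 1 library left out, r of Pomc with Gh ran from 0.105 to 0.65 in intact, -0.41 to 0.35 in AAV-GFP and -0.20 to 0.57 in AAV-SIRT3 libraries. That of Pomc with Prl ran from -0.20 to 0.57, -0.50 to 0.39 and 0.06 to 0.72. The highest intact values, 0.65 and 0.57, were those without replicate 1 and the lowest those without replicate 6, so these relations rest on single libraries.

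The low Pomc of intact replicate 1 went with low levels of factors that mark the ventromedial and other parts of the hypothalamus. Nr5a1 (steroidogenic factor 1, of gonadotrophs and the ventromedial hypothalamus) had 0.915 normalised reads there and 80.4 to 218 in the other intact libraries. Fezf1, a zinc finger gene of the ventromedial hypothalamus, had 4.57 there and 159 to 375 in the others. Six6, a homeobox gene of hypothalamus and pituitary, had 7.32 there and 144 in intact replicate 4, where Pomc was highest. These 3 genes were singled out after their values were seen. Among the virus libraries they were highest in AAV-SIRT3 replicate 4, with 139, 213 and 87.3 normalised reads, the virus library with the most Pomc. Pomc did not always go with them. AAV-GFP replicate 1 had 85.7, 179 and 67.7 normalised reads of Nr5a1, Fezf1 and Six6, with Pomc at 403. AAV-GFP replicate 6 had 87.4, 116 and 25.5, with Pomc at 79.6. The summed level of 17 hypothalamus and posterior lobe genes was 5800 in intact replicate 1, 15010 to 22973 in the other intact libraries, 15018 to 17767 in AAV-GFP and 13662 to 21022 in AAV-SIRT3, with Kiss1 at 0 reads throughout. Among the virus libraries this sum was highest in AAV-SIRT3 replicate 5, where Pomc was 81.7 normalised reads, and was 19197 in AAV-SIRT3 replicate 4. Intact replicate 1 was lowest of its group in 10 of the 17. Its Gh of 1581 normalised reads was nevertheless the next highest of all libraries after intact replicate 2. The part of hypothalamic tissue in the Pomc values was not tested.

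**Figure D2:**
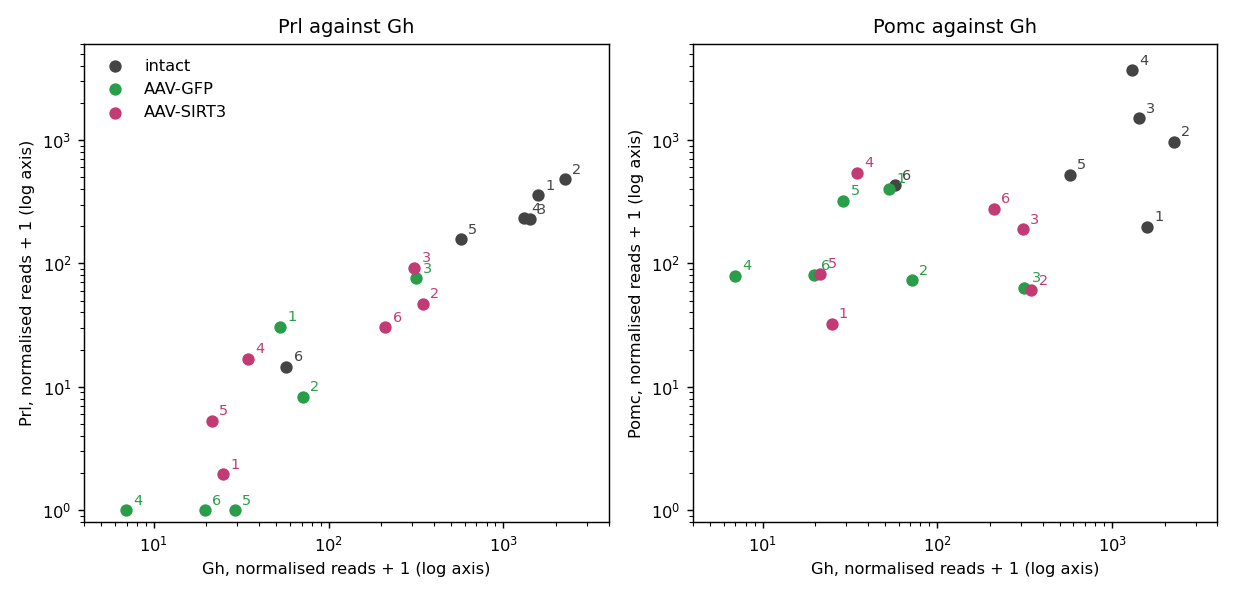
Prl (left) and Pomc (right) against Gh in normalised reads plus 1 (log axes), 1 point per library with its replicate number, coloured by group. The r of Prl with Gh was 0.99, 0.87 and 0.89 in intact, AAV-GFP and AAV-SIRT3 libraries. Only that of the intact group passed the adjustment. For Pomc with Gh r was 0.30, -0.11 and 0.17, and none passed, which over 6 libraries does not show a lack of relation.

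Per kb of exon, the order of the mean levels in intact libraries was Gh (1386), Pomc (922), Prl (173), Tshb (40.01), Cga (33.3), Lhb (21.4) and Pou1f1 (0.521 normalised reads). Gh, Pomc and Prl each lay within 1 SD of a neighbour in that order, as did Tshb, Cga and Lhb, with SDs per kb of 898 for Gh, 980 for Pomc, 6.91 for Tshb, 38.1 for Cga and 11.3 for Lhb (n = 6). Tshb and Lhb take this place with the overlap limits given above.

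Against intact mice, Prl, Gh, Pomc and Cga were lower in both virus groups. The limma fit placed 4 of the 6 tested members past its threshold (adjusted p under 0.05) and lower in AAV-GFP mice, where 1.84% of all 19443 genes passed and 1.02% passed as lower. It placed 4 there in AAV-SIRT3 mice, where 21.7% of all genes passed and 10.3% passed as lower. These contrasts chose the genes and share the intact libraries, and Cga passed the filter mainly through the intact libraries in which it was high, so nothing is read from the counts. Fold changes were computed on log2(normalised reads + 1), where the added 1 makes the change of low genes smaller. They are differences of mean logs and not logs of the ratios of means. The ratios of means of intact over AAV-GFP were 13.1 for Prl and 14.7 for Gh, smaller than the log2 fold changes below would give. For Prl the log2 fold change was -5.001 in AAV-GFP and -3.30 in AAV-SIRT3 mice, for Gh -4.24 and -3.16, for Pomc -2.65 and -2.61 and for Cga -2.95 and -3.52. Tshb had -0.10 and 0.01, and Lhb 0.20 and 0.43. In bulk tissue, fewer cells of a type and less RNA per cell cannot be told apart.

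None of the members separated the groups fully. Intact was higher than AAV-GFP in 34 of 36 pairs of libraries for each of Prl, Gh and Pomc and in 33 for Cga. It was higher than AAV-SIRT3 in 32 pairs for Prl, 33 for Gh, 32 for Pomc and 34 for Cga. The pairs that went the other way all held intact replicate 6 for Prl and Gh, replicates 5 or 6 for Cga and replicates 1, 5 or 6 for Pomc. Without the 3 libraries apart in choroid plexus or hypothalamic genes (intact replicates 1 and 2 and AAV-GFP replicate 5), the log2 fold changes in AAV-GFP were -3.86 for Prl, -3.50 for Gh and -3.35 for Pomc. In AAV-SIRT3 they were -2.64, -2.52 and -3.03. Without the 3 intact libraries low in thalamus genes, they were -4.51, -3.75 and -3.20 in AAV-GFP and -2.80, -2.68 and -3.16 in AAV-SIRT3. Cga was not tested in these fits because it no longer passed the filter. The direction was the same in each of these fits, but the calls moved with the libraries and the method. Over the 28 alternatives 0 to 4 members passed as lower in AAV-GFP and 1 to 4 in AAV-SIRT3 mice. No member passed in AAV-GFP when intact replicate 3, intact replicate 4, AAV-GFP replicate 5 or the 3 intact libraries low in thalamus genes were left out. For AAV-SIRT3 the call of Prl was lost with DESeq2, with a pseudocount of 0.5 and with all genes above 0. It was also lost when any 1 of intact replicates 1 to 5, AAV-SIRT3 replicate 1, AAV-SIRT3 replicate 5 or either set of 3 libraries was left out. Beside these differences, 7 of 9 thalamus genes passed as higher in AAV-SIRT3 and 2 of 9 in AAV-GFP against intact mice (5 and 0 by edgeR), with summed levels of 46919 to 94543 normalised reads in intact, 79332 to 91183 in AAV-GFP and 74520 to 100645 in AAV-SIRT3 libraries. With all libraries, 21.7% of all genes passed in AAV-SIRT3 and 1.84% in AAV-GFP against intact mice. Without the 3 intact libraries low in thalamus genes 0 of the 9 passed in either comparison, which follows from how these libraries were picked. In that fit 10 genes passed in AAV-GFP, with 0 members among them. In AAV-SIRT3 against intact mice 1686 passed, with 1 member, Pomc. Of 10 dopaminergic neuron genes 2 fell in AAV-GFP against intact mice, Slc6a3 (the dopamine transporter) by 0.44 (limma adjusted p = 0.0263) and Ret (a neurotrophic factor receptor) by 0.30 (limma adjusted p = 0.0214), with 8 of 10 at an unadjusted p under 0.05. In AAV-SIRT3 against intact mice 0 of the 10 passed by limma, edgeR or DESeq2, with 0, 2 and 1 at an unadjusted p under 0.05. Both AAV-GFP calls were lost without intact replicate 3, intact replicate 5 or AAV-GFP replicate 5. The part of the dissected area in the low values of the members was not tested.

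AAV-SIRT3 and AAV-GFP mice both received virus, and this is the comparison in which the genes were not chosen. None of the 6 tested members passed the threshold. Cga is among the 6, although it was low in both of these groups and passed the filter mainly through intact libraries. The limma fit called 0 of 6, with 0 at an unadjusted p under 0.05, and edgeR and DESeq2 on the recovered reads likewise called 0 with 0 at an unadjusted p under 0.05. Over all genes the limma fit called 0.113%, and 0.0771% as lower. In order of effect, Prl had a log2 fold change of 1.70 (SE 1.10, 95% interval -0.58 to 3.98, limma adjusted p = 0.471) and was higher in AAV-SIRT3 in 25 of 36 pairs. Gh had 1.08 (SE 0.918, interval -0.83 to 2.98, limma adjusted p = 0.604) and was higher in 23 of 36 pairs. The intervals of both genes hold no difference as well as a several-fold rise, so these libraries do not show that the groups are alike.

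Cga had a log2 fold change of -0.57 (interval -2.11 to 0.97, limma adjusted p = 0.760). It rested on 18 reads over all AAV-GFP and 6 over all AAV-SIRT3 libraries, so the added 1 weighs on it and little can be read from it. Pomc had 0.04 (interval -1.36 to 1.45, limma adjusted p = 0.984), with 18 of 36 pairs each way. Lhb had 0.23 (interval -0.61 to 1.08, limma adjusted p = 0.831). For Tshb the interval was the narrowest, -0.16 to 0.36 around 0.10 (limma adjusted p = 0.738). The median of the 6 was 0.17 and that of all genes 0.00. Of the 28 alternative settings, Prl, Gh, Pomc and Tshb were fitted in 28, Lhb in 27, Cga in 19 and Pou1f1 in 1, and none of them passed the threshold in any. Prl ran from 0.66 to 2.48 in them, with an adjusted p of 0.312 to 0.815.

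**Figure D3:**
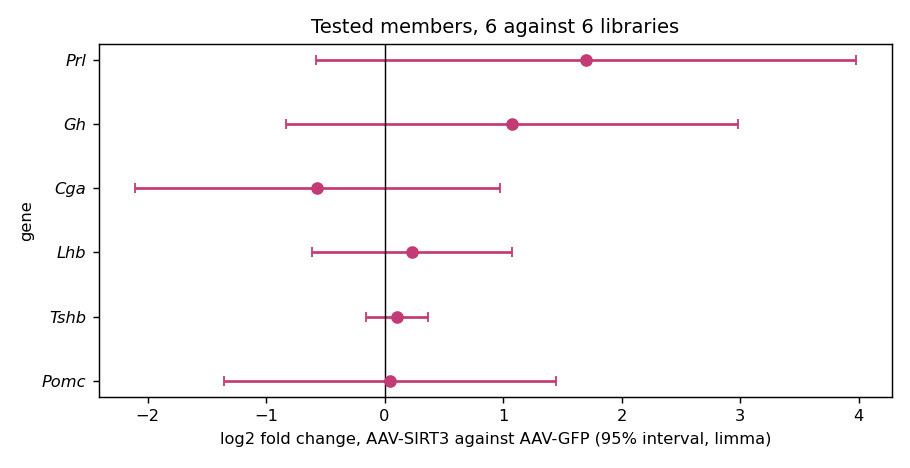
Log2 fold change of AAV-SIRT3 against AAV-GFP for the 6 tested members (points) with the 95% interval of the limma fit (bars), 6 libraries against 6. All intervals cross 0. Those of Prl (-0.58 to 3.98) and Gh (-0.83 to 2.98) are the widest and that of Tshb (-0.16 to 0.36) is the narrowest. That of Cga rests on 18 reads over all AAV-GFP and 6 over all AAV-SIRT3 libraries.

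Genes that build or regulate the hormone cells were looked at next, as a list of 12 transcription factors with Fshb. Of these 13 genes 9 were tested, and 0 passed the limma threshold in any of the 3 comparisons (0, 0 and 2 at an unadjusted p under 0.05 in AAV-SIRT3 against AAV-GFP, AAV-GFP against intact and AAV-SIRT3 against intact). By edgeR and DESeq2 0 passed as well. The median log2 fold change of the list was -0.18, -0.10 and -0.13 in the same order. In AAV-SIRT3 against intact mice the 2 genes at an unadjusted p under 0.05 by limma were Lhx3, a factor of the pituitary and motor neurons, with a log2 fold change of -0.80 (limma adjusted p = 0.0813), and Six6, with -1.65 (limma adjusted p = 0.0852). Without the 3 libraries apart in choroid plexus or hypothalamic genes, 2 of the 9 passed in that comparison, Nr5a1 and Six6. The lower of their limma adjusted p was 0.0311, and 15.4% of all genes passed in that fit. Foxl2, a factor of gonadotrophs and thyrotrophs, had 27.0 ± 7.12, 31.9 ± 6.04 and 27.3 ± 8.25 normalised reads in intact, AAV-GFP and AAV-SIRT3 libraries (SD, n = 6 each). Pitx1 and Hesx1, which act early in the development of the gland, were near 0 and are named here after their values were seen. In intact, AAV-GFP and AAV-SIRT3 libraries Pitx1 reached at most 10.1, 4.26 and 4.96 normalised reads and Hesx1 at most 3.996, 0.912 and 0.

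Of 8 receptors through which the hypothalamus and sex steroids act on hormone cells, 5 were tested. In AAV-SIRT3 against intact mice 1 of the 5 fell, where 21.7% of all genes passed and 10.3% as lower. It was Trhr, the receptor for thyrotropin-releasing hormone, which is also expressed in brain. It had 332 to 612 normalised reads in intact libraries (median 512) and 308 to 413 in AAV-SIRT3 (median 376), so the groups overlapped, and its log2 fold change was -0.39 (limma adjusted p = 0.0209). The call was lost when intact replicate 3, intact replicate 5 or AAV-SIRT3 replicate 2 was left out. In AAV-GFP against intact mice Trhr had -0.43 (limma adjusted p = 0.0585) and 0 of the 5 passed, with 2 at an unadjusted p under 0.05, while edgeR and DESeq2 each called 1, Trhr. In AAV-SIRT3 against AAV-GFP mice 0 of 5 passed by limma, edgeR or DESeq2, with 0 at an unadjusted p under 0.05.

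The enzymes that cut and finish peptide hormones are shared by pituitary cells and neurons, and were listed with a chaperone and an inhibitor of such enzymes. All 6 listed genes were tested, and 4 passed in AAV-SIRT3 against intact mice, where 21.7% of all genes passed. In AAV-GFP against intact mice 1 of the 6 passed by limma, where 1.84% of all genes passed, with 3 at an unadjusted p under 0.05. Cpe, carboxypeptidase E, had 112570 ± 6969 normalised reads without virus, 138132 ± 5513 with AAV-GFP and 133315 ± 5100 with AAV-SIRT3 (SD, n = 6 each). Every library of both virus groups was above the highest intact library, at 118930. It rose by 0.30 (limma adjusted p = 0.00297) in AAV-GFP and by 0.25 (limma adjusted p = 0.0014) in AAV-SIRT3 on the log2 scale, opposite in sign to Prl, Gh and Pomc. In AAV-SIRT3 against intact mice Scg5, the chaperone 7B2 of the convertase Pcsk2, rose by 0.24 (limma adjusted p = 0.00104) and Pcsk1n, an inhibitor of Pcsk1, rose by 0.28 (limma adjusted p = 0.0251). The convertase Pcsk1 fell by 0.27 (limma adjusted p = 0.0117) there, from 3239 ± 353 to 2685 ± 254 normalised reads (SD, n = 6 each). Of these, Cpe and Scg5 passed in all 28 alternatives of the AAV-SIRT3 comparison, Pcsk1 in 27 and Pcsk1n in 23. In AAV-GFP against intact mice Cpe passed in 27 of 28, and missed the threshold without the 3 intact libraries low in thalamus genes (limma adjusted p = 0.0824). Scg5 had a log2 fold change of 0.13 there (limma adjusted p = 0.0852). By edgeR 1 of the 6 passed in that comparison, Cpe. By DESeq2 2 passed, Cpe and Scg5, where 5.14% of all genes passed. In AAV-SIRT3 against AAV-GFP mice 0 of 6 passed by limma, edgeR or DESeq2, with 2 at an unadjusted p under 0.05, Pcsk1 and Scg5.

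Of the 2 genes listed for the intermediate lobe, Oacyl, listed as a marker of melanotrophs, fell in AAV-SIRT3 against intact mice, by 0.89 on the log2 scale (limma adjusted p = 0.0498). It had 155 normalised reads in intact replicate 4, the library with the most Pomc, and 37.6 to 74.3 in the other intact libraries, against 16.5 to 48.4 in AAV-SIRT3. The groups overlapped, and the call held in 10 of 28 alternatives. Of all genes, 21.7% passed in this comparison and 10.3% passed as lower. Pax7, the factor that specifies melanotrophs and is also expressed in midbrain, had -0.22 (limma adjusted p = 0.439).

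Genes for the peptides that control the pituitary were in the hypothalamic list, in which 16 of 17 were tested and 0 passed the limma threshold in any of the 3 comparisons, with 2 at an unadjusted p under 0.05 in each. By edgeR and DESeq2 0 passed as well. The median log2 fold change of the list was 0.05 in AAV-SIRT3 against AAV-GFP, -0.20 in AAV-GFP against intact and -0.21 in AAV-SIRT3 against intact mice. Without the 3 libraries apart in choroid plexus or hypothalamic genes, 1 of the 16 passed in AAV-SIRT3 against intact mice. It was Crh (limma adjusted p = 0.0429), and 15.4% of all genes passed in that fit. Ghrh, the releasing hormone of growth hormone, had 105 ± 42.3, 85.3 ± 41.7 and 86.4 ± 31.2 normalised reads in intact, AAV-GFP and AAV-SIRT3 libraries (SD, n = 6 each). Trh, which releases thyrotropin and prolactin, had 988 ± 486, 763 ± 230 and 956 ± 410, and Crh, which releases corticotropin, 134 ± 26.6, 130 ± 14.3 and 161 ± 20.8 (SD, n = 6 each). Avp and Oxt, the peptides released in the posterior lobe, spanned 8.23 to 2080 and 5.49 to 2562 normalised reads over the 18 libraries, with both lowest in intact replicate 1. Their highest libraries were intact replicate 4 for Avp and AAV-SIRT3 replicate 5 for Oxt.

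**Figure D4:**
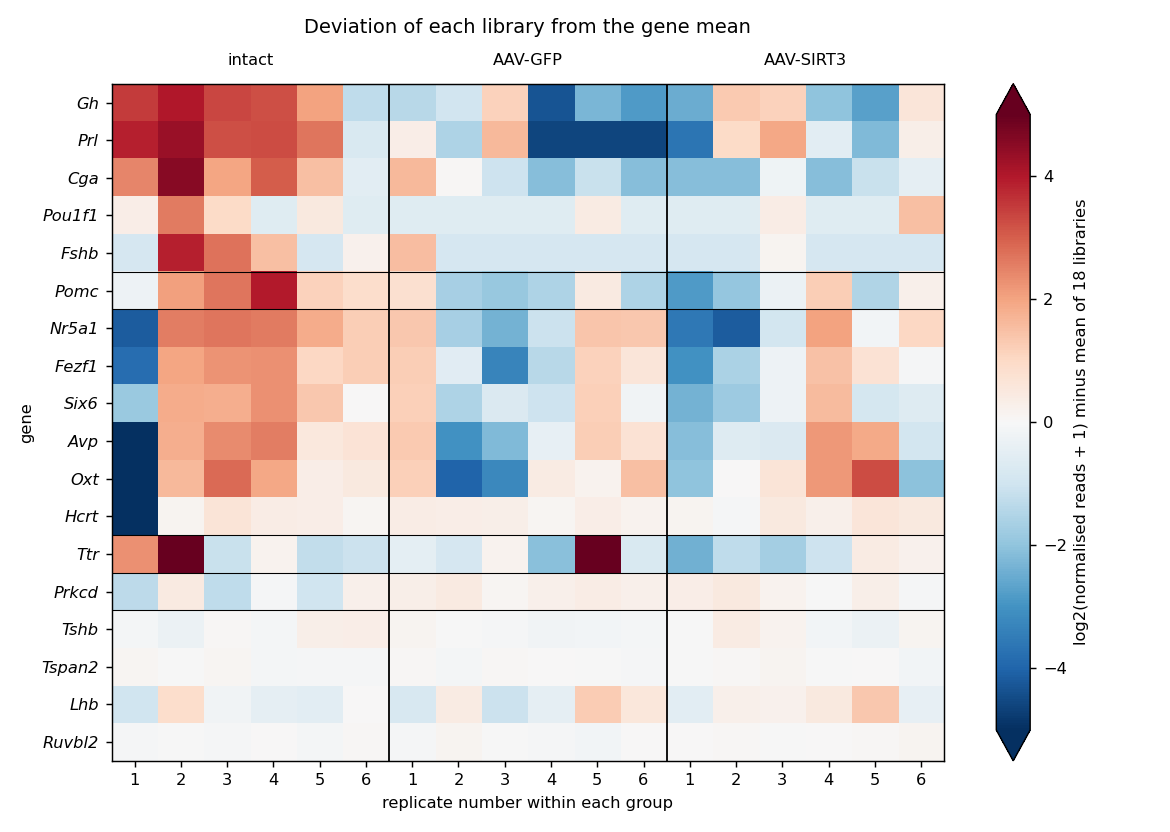
Deviation of each library (columns, replicates 1 to 6 per group) from the gene's mean over 18 libraries, on log2(normalised reads + 1), for members, hypothalamic genes, choroid plexus Ttr, thalamic Prkcd and the overlapping genes Tspan2 and Ruvbl2. The colour scale ends at 5 in either direction. Gh, Prl and Cga are high in intact replicates 1 to 5, while Avp, Oxt, Hcrt, Nr5a1 and Fezf1 are low in intact replicate 1 and Ttr is high in intact replicate 2 and AAV-GFP replicate 5.

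On the receiving side, 6 of 8 genes for receptors of the hormones were tested. By limma, 1 of the 6 fell in AAV-SIRT3 against intact mice, a share below the 21.7% of all genes that passed there, and 0 passed in AAV-GFP against intact or in AAV-SIRT3 against AAV-GFP mice (1 and 0 at an unadjusted p under 0.05, and 0 called by edgeR or DESeq2). Prlr, the prolactin receptor, is also high in choroid plexus. It had 2193 normalised reads in intact replicate 2 and 1957 in AAV-GFP replicate 5, the libraries highest in Ttr, and 1091 to 1337 in the other intact, 809 to 1270 in the other AAV-GFP and 868 to 1035 in all AAV-SIRT3 libraries. Its log2 fold change was -0.52 in AAV-SIRT3 against intact mice (limma adjusted p = 0.031), with each intact library above each AAV-SIRT3 library. The call was lost without intact replicate 2, among others (20 of 28 alternatives kept it). It held without the 3 libraries apart in choroid plexus or hypothalamic genes (limma adjusted p = 0.00877). Without the 3 intact libraries low in thalamus genes it held as well (limma adjusted p = 0.0344). Choroid plexus genes, summed over 10, ran from 1773 to 51090 in intact, 1406 to 45121 in AAV-GFP and 1344 to 2962 in AAV-SIRT3 libraries, and 2 of the 10, Kcnj13 and Mfrp, also fell in that comparison, near the 21.7% of all genes that passed. Both calls were lost without intact replicate 2, among others, and held in 15 and 17 of 28 alternatives. The part of choroid plexus tissue in the Prlr result was not tested. Ghr, the growth hormone receptor, had 1059 ± 61.5, 951 ± 35.4 and 1020 ± 64.4 normalised reads (SD, n = 6 each) and passed in no comparison.

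Genes that act below these receptors did not pass in any comparison. Of 9 listed, 8 were tested and 0 were called by limma, edgeR or DESeq2, with 0, 1 and 1 at an unadjusted p under 0.05 by limma in AAV-SIRT3 against AAV-GFP, AAV-GFP against intact and AAV-SIRT3 against intact mice. The gene at that level was Stat5a, a transcription factor that both receptors activate, with 201 ± 7.80, 165 ± 27.7 and 169 ± 20.1 normalised reads (SD, n = 6 each). Socs2, a feedback inhibitor induced by growth hormone, had 722 ± 112, 800 ± 84.7 and 763 ± 86.9, and Igf1, a growth factor induced by it in liver, 981 ± 114, 1074 ± 68.4 and 1059 ± 53.5 (SD, n = 6 each).

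Across all libraries, the genes outside the group whose level was most like the mean of Prl and Gh were ranked by Pearson r on log2(value + 1) among 23712 genes. This is a description, since 5 intact libraries set most of the range of Prl and Gh. The 10 highest were AA386476 (r of 0.78), Mcph1, Gm18935, Tmem241, Ddhd2, Gm42208, Gm47260, Trim25, Tmc7 and Gm12592 (r of 0.73). After subtraction of the group means their r was 0.53 to 0.69. Among the members Cga was most like the pair, with 0.79, followed by Pomc with 0.58, Pou1f1 with 0.54, Tshb with 0.21 and Lhb with -0.33. Of the pituitary genes that are not members, Fshb had 0.56 and Pitx1 0.51, both at very low levels, and Foxl2 had 0.31, or 0.74 after subtraction of the group means. These are picked from the list of transcription factors with Fshb. The other ranked genes of that list ran from -0.18 for Tbx19 to 0.34 for Six6. After subtraction of the group means they ran from -0.26 for Tbx19 to 0.32 for Neurod4.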

How the data were processed

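Poly-A RNA of 18 substantia nigra libraries was read in pairs of 100 bp. In the deposited table each gene has a normalised signal, which the authors made by dividing read counts by 1 size factor per library, as its values show. Per the submitters' processing notes, HISAT2 2.1.0, mm10 and DESeq2 1.34.0 were used. The annotation and the strand setting of the counting are not given in the sources used here. Each column times its size factor gave whole reads for 100% of values, with a largest deviation of 4.42e-09. The factor is near 1 in replicate 4 of the intact and AAV-SIRT3 groups, so the steps say less there. All 18 columns were matched to samples by name.

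Models were fitted by limma 3.58.1 (R 4.3.3) to log2(value + 1), with 3 groups in 1 model and a trend in the prior variance. Genes with at least 10 normalised reads in at least 6 libraries were tested, and p-values were adjusted by Benjamini-Hochberg over all of them within a comparison. Alternatives were pseudocounts of 0.5 and 10, all genes above 0, a minimum mean of 50, TMM factors, edgeR 4.0.16, DESeq2 1.42.0, a replicate block and leaving out each library. Leaving out 3 libraries together, in 2 ways, was chosen after seeing the data. The fit was tested on simulated counts. Relations between members were tested by exact permutation.

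The members and the gene lists were chosen with earlier results of these data known. All members are named, and a listed gene may be named when its mean is at least 10 or it passes a test. A few listed genes are not reported here. Gene positions are from GENCODE M21, and promoters from RefSeq. Mice are the replicates, and replicates of a group differed by more than sampling noise (chi-square per degree of freedom 8.27 to 36.6 over 45 pairs). Reads carry no molecular identifiers, so intervals and limits on counts of 0 cover counting error only.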

Additional observations from a re-analysis of the deposited data

Results flagged for a closer look

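In 33 groups of 6 values (7 members and 4 summed marker lists in 3 groups), 12 held a library far from the rest by Dixon's criterion, where chance would give about 1 in 20, or 1.65. Among the members, Gh was 314 normalised reads in AAV-GFP replicate 3, against at most 70.2 in the others of that group. Pomc was 3680 in intact replicate 4, Cga was 102 in intact replicate 2 and 12.7 in AAV-GFP replicate 1, and Lhb was 40.9 in AAV-SIRT3 replicate 5. Pou1f1 stood out at 8.16 in intact replicate 2, 1.04 in AAV-GFP replicate 5 and 3.38 in AAV-SIRT3 replicate 6, which are counts of 9, 1 and 3 reads. The criterion is easily met by genes whose other libraries are near 0.

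Choroid plexus genes summed to 51090 normalised reads in intact replicate 2 and 45121 in AAV-GFP replicate 5. Of these libraries the first had the most Gh, Prl and Cga of all 18 and the second had 0 reads of Prl. Thalamus genes summed to 79332 in AAV-GFP replicate 3, the lowest of its group, and this library had the most Gh and Prl of its group. Red blood cell genes summed to 1448 in AAV-GFP replicate 4, the library with the lowest Gh. None of these relations was tested.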

How the results depend on the processing

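No fold change of Prl, Gh, Pomc or Cga against intact mice changed sign under the alternatives. Genes past the threshold in AAV-SIRT3 against AAV-GFP mice numbered 22, and 304 with DESeq2, 13 with the replicate block, 7 without the 3 libraries apart in choroid plexus or hypothalamic genes, and 5 (without AAV-SIRT3 replicate 5) to 862 (without AAV-GFP replicate 2) with 1 library left out. In AAV-GFP against intact mice they numbered 358, and 164 with all genes above 0, 1000 with DESeq2, 130 without those 3 libraries, 10 without the 3 intact libraries low in thalamus genes, and from 129 without intact replicate 3 up to 685 when AAV-GFP replicate 1 was left out. In AAV-SIRT3 against intact mice they numbered 4214, 1686 without the 3 low in thalamus genes, and 3287 to 4634 with 1 left out. The Pearson r of Gh with Prl in intact libraries was 0.9135 to 0.995 with 1 left out, with too few libraries to pass the adjustment. With a pseudocount of 10 the log2 fold change of Cga was -1.37 in AAV-GFP and -1.56 in AAV-SIRT3 against intact mice, and with DESeq2 it was -4.97 in the latter. Cga could be fitted in 19 of 28 alternatives. For other changes the cause was not tested.

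Replicate numbers are shared between groups in the labels. Same-numbered libraries had correlations of deviations from -0.104 to 0.190, and in 1 of 18 pairs a library correlated best with its own number, so the numbers are not treated as pairing mice. With the replicate block 372 genes passed in AAV-GFP and 3923 in AAV-SIRT3 against intact mice, 13 in AAV-SIRT3 against AAV-GFP, and of the members only Prl and Gh passed in the first.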
